A study of Homo sapiens with 7 samples.

Results

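The CHD genes, CHD1 to CHD9, encode the chromodomain helicase DNA-binding proteins. They were taken as all probe sets of the ExonHit Human Splice Array whose name opens with the NCBI gene number of 1 of these genes, which gave 9 of the 16148 genes with a gene value and 3431 of the 2108940 probe sets. HCT116, an established human colon carcinoma cell line, was treated with 10 µM camptothecin (CPT), which locks topoisomerase I onto the DNA it has cut, and total RNA was hybridised with 1 array for each time. The DMSO group held 2 arrays, of cells that received only the solvent (0.1% DMSO) for 4 or 20 h. The CPT early group held 3 arrays (1, 2 and 4 h) and the CPT late group 2 arrays (15 and 20 h). All arrays came from the same line, so they describe 1 cell background. No time was repeated and nothing in the labels says that the cultures were separate, so p-values compare differences only with the spread among arrays of unlike times, which may be technical.

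CHD proteins are remodellers of the SNF2 type. Paired chromodomains at the front of the protein help them bind chromatin, and a motor domain uses ATP to slide or space nucleosomes. CHD1 and CHD2 (class I) travel with elongating RNA polymerase II and space nucleosomes over transcribed genes, CHD1 through binding to trimethylated lysine 4 of histone H3. CHD3, CHD4 and CHD5 (class II) serve as alternative motor subunits of the NuRD deacetylase complex, CHD5 mainly in neural tissue and testis. CHD6, CHD7, CHD8 and CHD9 (class III) act at enhancers and promoters: CHD7 is mutated in CHARGE syndrome, and CHD8 is a regulator of beta-catenin targets and an autism gene.

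The array medians over all probe sets lay between 2.87 and 2.96 on the log2 scale. Correlations over all probe sets were 0.942 to 0.956 among the DMSO and CPT early arrays and 0.845 to 0.908 between these and the CPT late arrays, so the late arrays stood apart. Of the 9 listed epithelial markers 8 were measured, and their median gene value was 6.60 and 7.09 on the DMSO arrays. The medians of the neural, leukocyte, fibroblast and endothelial lists lay between 3.64 and 4.33 there. Single members departed from their lists. The leukocyte marker LYZ had a DMSO mean of 10.89, above every measured epithelial marker, and the epithelial markers CDH1 (4.28) and CLDN4 (4.34) were dim. On the late arrays the epithelial median was 5.72 and 5.44, with 2 of 8 members lower and 1 higher. The other lists stood between 4.36 and 5.09 there, with 5 of 5 endothelial, 4 of 6 fibroblast, 2 of 5 neural and 1 of 4 leukocyte markers higher. Over all genes 18% were lower and 33.4% higher late by the same limma test, and the median difference was 0.34. The part of these marker shifts in the results below was not tested. In RNA from whole cultures of this 1 line, a change in some of the cells and a change in every cell cannot be told apart.

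Late in the treatment most CHD genes were lower. A gene value here is the median log2 value of the probe sets kept for that gene, those with a mean over all arrays above 2.95. With limma and Benjamini-Hochberg adjustment over all genes (threshold 0.05), 7 of the 9 CHD genes fell in CPT late against DMSO and 1 rose. The background was 18% of all tested genes lower and 33.4% higher, and the median difference of all genes was 0.34 on the log2 scale. The median of the CHD genes was −1.10. Both class I genes and all 4 class III genes fell, while the 3 class II genes split into 1 lower, 1 higher and 1 that did not pass.

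CHD1 changed most. Its gene value was 7.14 and 6.64 on the 4 and 20 h DMSO arrays, 6.76, 6.26 and 5.05 after 1, 2 and 4 h of CPT, and 2.93 and 3.10 after 15 and 20 h. Both late arrays lay far below the lowest of the others, the 4 h CPT array. The difference from DMSO was −3.88 ± 0.44 (SE), a 14.7-fold decrease (adjusted p = 1.48e-04), and CHD1 ranked 6 from the lowest of 16148 genes. These late values were close to the median of all probe sets on those arrays, 2.96 and 2.95, and 87 of the 182 kept CHD1 probe sets (47.8%) had a late mean under the 2.95 used as the filter, against 0 in DMSO. No detection calls were available, so how far the late level lies above background is unknown.

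CHD2, the class I partner gene, stood at 6.41 and 6.39 in DMSO, at 5.99, 5.68 and 5.04 in CPT early, and at 4.44 and 4.58 in CPT late. Its late arrays were below all others and the difference was −1.89 ± 0.28 (SE), 3.70-fold (adjusted p = 7.13e-04). Unlike CHD1, it had covered most of this distance on the 4 h array. Between 15 and 20 h CHD1 differed by 0.17 and CHD2 by 0.14.

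**Figure D1:**
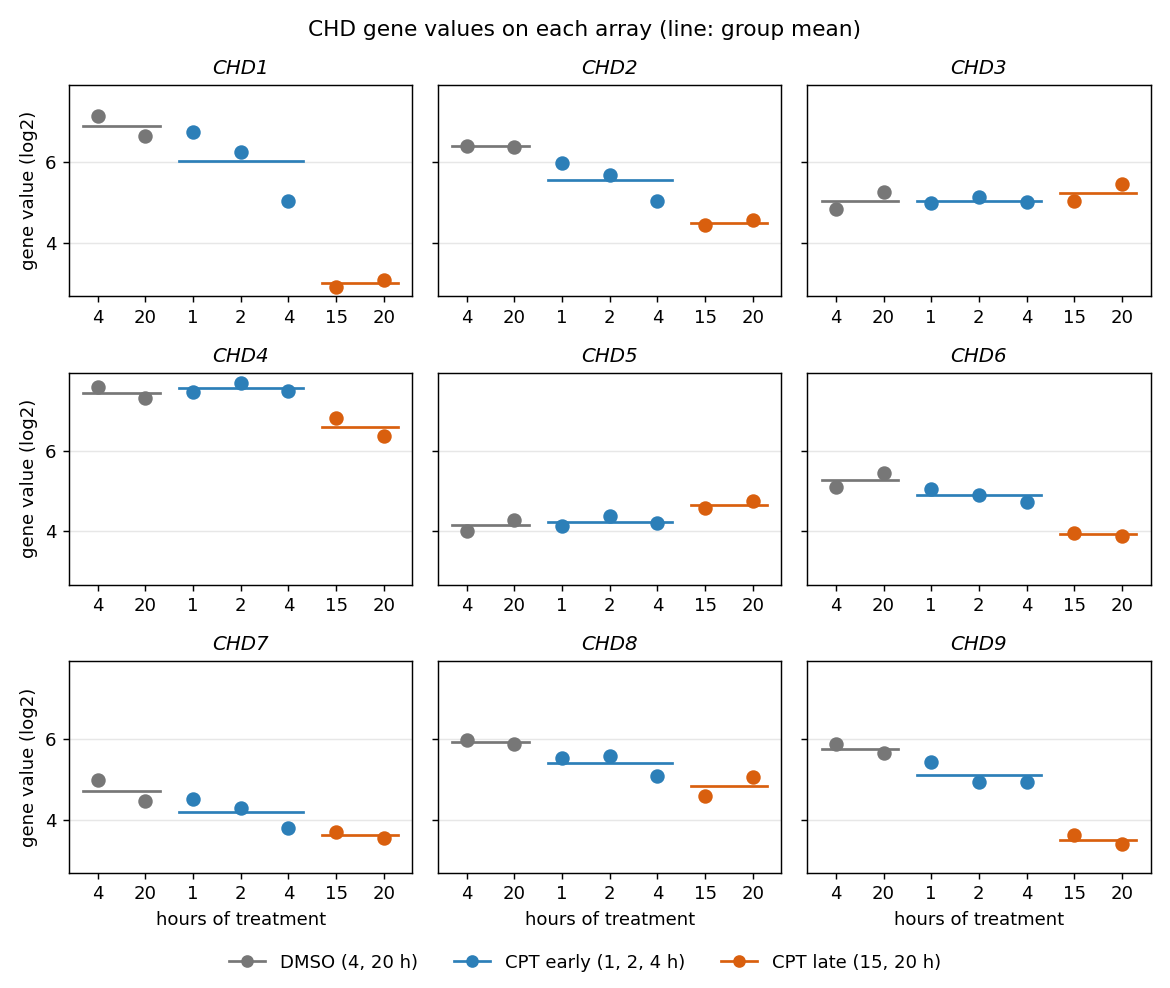
Gene values of the 9 CHD genes (log2, vertical axis, shared scale) on each of the 7 arrays, by hours of treatment, with 1 point per array and a line at each group mean. CHD1 goes from 7.14 on the 4 h DMSO array to 2.93 on the 15 h CPT array, CHD3 stays between 4.85 and 5.46, and levels are not to be compared between genes because each is read by other probes.

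Among the class III genes CHD9 changed most. It was 5.86 and 5.64 in DMSO, 5.43, 4.93 and 4.94 in CPT early, and 3.62 and 3.40 in CPT late. The 3 groups did not overlap, and the late difference was −2.24 ± 0.22 (SE), 4.73-fold (adjusted p = 7.62e-05). CHD6 was 5.10 and 5.44 in DMSO, 5.04, 4.91 and 4.72 in CPT early and 3.97 and 3.89 in CPT late. Its late arrays lay below all others, with a difference of −1.34 ± 0.20 (SE), 2.53-fold (adjusted p = 6.13e-04).

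CHD7 was 4.99 and 4.45 in DMSO, 4.50, 4.30 and 3.79 in CPT early and 3.70 and 3.54 in CPT late. The late arrays lay just below the 4 h CPT array, and the difference from DMSO was −1.10 ± 0.25 (SE), 2.15-fold (adjusted p = 0.00667). With the 4 h DMSO array left out the difference was −0.84 and missed the threshold (adjusted p = 0.0627). CHD8 was 5.97 and 5.86 in DMSO, 5.54, 5.58 and 5.08 in CPT early and 4.58 and 5.06 in CPT late. The 20 h value of CHD8 was near its 4 h value, and the late difference was −1.09 ± 0.24 (SE), 2.14-fold (adjusted p = 0.00588).

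The class II genes, the NuRD motors, went different ways. CHD4 was 7.56 and 7.31 in DMSO, 7.45, 7.68 and 7.48 in CPT early and 6.81 and 6.35 in CPT late. The early and DMSO arrays overlapped and both late arrays lay below them, with a late difference of −0.85 ± 0.22 (SE), 1.81-fold (adjusted p = 0.0114). The call was lost when the 4 h DMSO array was left out (−0.73, adjusted p = 0.0797) and likewise with the 20 h CPT array left out (−0.62, adjusted p = 0.0704).

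CHD5 was 4.02 and 4.28 in DMSO, 4.12, 4.38 and 4.22 in CPT early and 4.58 and 4.74 in CPT late. Its DMSO values lay within the range of the neural, leukocyte, fibroblast and endothelial list medians there (3.64 to 4.33). Of its 226 kept probe sets 33 had a DMSO mean under the filter and so passed it through the CPT arrays. The same 4 lists had median late differences from 0.35 to 0.62. CHD5 rose late by 0.51 ± 0.18 (SE), 1.43-fold (adjusted p = 0.0352), against a median of 0.34 over all genes. After each array was centred on its median gene value the difference was 0.28 and did not pass (adjusted p = 0.205). Leaving out the 4 h DMSO array (0.38, adjusted p = 0.172), the 15 h array (0.59, adjusted p = 0.0729) or the 20 h CPT array (0.43, adjusted p = 0.161) ended the call as well.

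CHD3 was 4.85 and 5.27 in DMSO, 5.01, 5.15 and 5.02 in CPT early and 5.04 and 5.46 in CPT late, and its groups overlapped. The late difference was 0.19 ± 0.22 (SE, adjusted p = 0.478), with a 95% interval from −0.30 to 0.69, and it turned to −0.042 after centring. A change of 2-fold in either direction lay outside that interval.

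**Figure D2:**
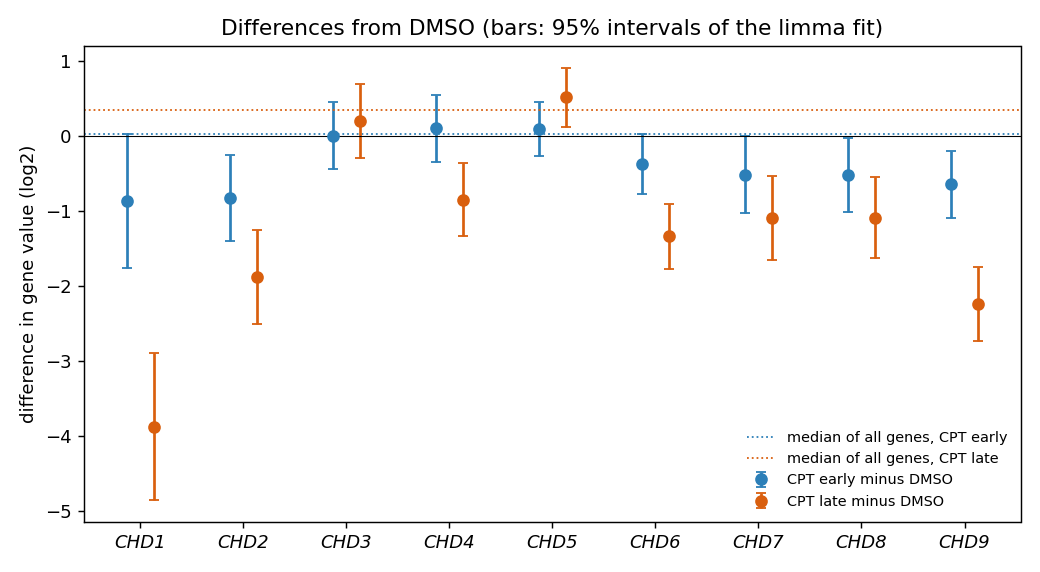
Differences in gene value from DMSO (log2, vertical axis) for each CHD gene, CPT early in blue and CPT late in orange, with 95% intervals of the limma fit and dotted lines at the median of all 16148 genes. The late differences run from −3.88 for CHD1 to 0.51 for CHD5, and the early ones from −0.87 for CHD1 to 0.10 for CHD4.

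RefSeq (GRCh38.p14) promoter sequences matched 6 of the 9 genes. The 250 bases before the start are shown for 3 genes that fell together, CHD1 (chr5:98929008-98929257, minus strand), CHD2 (chr15:92900074-92900323, plus strand) and CHD9 (chr16:53054741-53054990, plus strand, the first of 4 starts). Each is written 5′ to 3′ on the strand of the gene, with capitals marking motifs, searched on both strands. The GC box was read as GGGCGG. The CCAAT box was searched by its 5 letters. For the TATA box the letters were TATAAA. An E-box was CACGTG.
CHD1: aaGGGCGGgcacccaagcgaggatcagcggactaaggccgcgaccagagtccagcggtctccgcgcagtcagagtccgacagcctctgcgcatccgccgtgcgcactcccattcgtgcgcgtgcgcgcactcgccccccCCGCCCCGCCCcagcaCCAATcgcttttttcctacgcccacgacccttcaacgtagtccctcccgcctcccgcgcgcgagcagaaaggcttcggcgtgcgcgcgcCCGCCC
CHD2: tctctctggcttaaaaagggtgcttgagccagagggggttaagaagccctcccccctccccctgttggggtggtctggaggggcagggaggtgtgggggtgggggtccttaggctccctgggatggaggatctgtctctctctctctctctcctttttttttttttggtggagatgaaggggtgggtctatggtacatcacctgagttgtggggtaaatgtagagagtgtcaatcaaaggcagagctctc
CHD9: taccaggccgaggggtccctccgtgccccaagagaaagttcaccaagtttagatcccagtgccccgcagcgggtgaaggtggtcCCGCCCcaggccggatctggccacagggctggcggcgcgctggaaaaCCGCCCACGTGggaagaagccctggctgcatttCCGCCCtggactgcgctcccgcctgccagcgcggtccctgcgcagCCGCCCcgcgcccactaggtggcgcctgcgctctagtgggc
The CHD1 window held 4 GC boxes, of which a neighbouring pair shares 1 base, and 1 CCAAT box. The CHD9 window held 4 GC boxes and 1 E-box that shares 1 base with a GC box. The CHD2 window held 0 matches to any of the 4 motifs. Of 35116 promoter windows of the same length, 42.6% held a GC box, 32.0% a CCAAT box, 10.7% a TATA box and 6.34% an E-box.

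The early arrays asked how soon the CHD genes moved. With limma and adjustment over all genes 0 of the 9 passed in CPT early against DMSO, where 0.0681% of all genes were lower and 0.0248% higher. At an unadjusted p under 0.05 there were 4, CHD2, CHD7, CHD8 and CHD9, all lower, against 3.54% of all genes, with adjusted p from 0.52 to 0.697. CHD2 differed by −0.83 ± 0.26 (SE), CHD9 by −0.65 ± 0.20, CHD7 by −0.52 ± 0.23 and CHD8 by −0.52 ± 0.22. In 4 genes, CHD2, CHD6, CHD8 and CHD9, all 3 early arrays lay below both DMSO arrays, against 9.04% of all genes, and 0 were above both (12.8%). CHD1 differed by −0.87 ± 0.40 (SE, adjusted p = 0.704), with its 1 h array inside the DMSO range and its 4 h array far below it. The early group joins 3 times, so a value that moves between 1 and 4 h counts as spread.

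Set side by side without a test, the single 4 h arrays showed 3 of the 9 CHD genes more than 2-fold lower under CPT than under DMSO, against 1.74% of all genes. These were CHD1 (−2.09, rank 17 from the lowest of 16148), CHD2 (−1.36, rank 95) and CHD7 (−1.20, rank 150). None was more than 2-fold higher, against 1.39% of all genes. At 20 h, CHD1 (−3.54), CHD9 (−2.24), CHD2 (−1.81) and CHD6 (−1.55) were more than 2-fold lower, against 11.5% of all genes, and 0 were more than 2-fold higher (6.53%). Between the DMSO arrays the 9 genes differed by −0.53 to 0.42, and 0 passed 2-fold (0.601% of all genes lower, 1.09% higher). The 4 h and 20 h comparisons each used their own DMSO array, and the comparison between the DMSO arrays used both.

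Fits chosen after seeing the data looked at time more closely. With the 4 h CPT array as a group of its own, its spread taken from the other groups, 0 of the 9 passed with limma (CHD1 −1.84 ± 0.32 SE, adjusted p = 0.0811). CHD2 was next at −1.36 ± 0.26 (SE, adjusted p = 0.128), and 6 CHD genes were lower at an unadjusted p under 0.05, against 4.01% of all genes. With a slope over 1, 2 and 4 h, CHD1 dropped by 0.85 ± 0.18 (SE) for each doubling of time, CHD2 by 0.47 ± 0.15 and CHD7 by 0.35 ± 0.15. With limma these 3 had an unadjusted p under 0.05, against 2.3% of all genes sloping down, and 0 genes of the whole table passed after adjustment.

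Late against early, 6 CHD genes were lower with limma (background 19%) and 1 was higher (36.2%). CHD1 differed by −3.01 ± 0.40 (SE, adjusted p = 3.43e-04), CHD9 by −1.59 ± 0.20 (adjusted p = 2.53e-04) and CHD2 by −1.06 ± 0.26 (adjusted p = 0.00839). CHD6 differed by −0.96 ± 0.18 (adjusted p = 0.00227) and CHD4 by −0.95 ± 0.20 (adjusted p = 0.00447). CHD8 (−0.57, adjusted p = 0.049) and CHD5 (0.42, adjusted p = 0.0489) were at the threshold, and without the 15 h array CHD8 read −0.33 (adjusted p = 0.322). CHD8 also missed the threshold without either DMSO array, the 1 h or the 2 h array (adjusted p from 0.0581 to 0.133), and CHD5 without any 1 of the 5 CPT arrays (0.0546 to 0.230). CHD7 did not pass (−0.58, adjusted p = 0.0535) but did without either DMSO array (both adjusted p = 0.0458) or the 4 h CPT array (0.0157). At 4 h CPT CHD4 lay between its DMSO values while both class I and all class III genes lay below theirs.

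The gene values rest on 1993 of the 3431 CHD probe sets, the ones that passed the filter on dim values. A probe set name gives, after the gene number, an event number, a copy number and a letter. The letters B, C, D, E, F and T stand under events from 1 upward and X, Y and Z under event 0. What the letters stand for, and whether event numbers follow the gene from start to end, is not given in the sources used here. Probe sets of 1 event may share sequence, so they are not independent. In CPT late against DMSO 808 kept CHD probe sets were lower with limma (adjusted over 947263 probe sets, background 14.2%) and 61 were higher (7.23%). Of the kept ones 67 had a DMSO mean under the filter, 33 of them in CHD5, and so passed it through the CPT arrays; 10 of the 61 were among these. Likewise 335 had a late mean under it, among them 250 of the 808. In CPT early 0 passed in either direction, against 0.0321% lower and 0.0224% higher.

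In CHD1 the decrease ran through nearly all probe sets: 171 of 182 kept ones were lower and 0 higher. CHD2 had 155 lower and 5 higher of 224, CHD9 117 lower and 0 higher of 182, and CHD4 141 lower and 1 higher of 301. The counts were 84 of 219 lower for CHD8, 77 of 204 for CHD6 and 60 of 196 for CHD7, with 2, 2 and 6 higher. CHD3 had 3 lower and 22 higher of 259, and CHD5 had 0 lower and 23 higher of 226. Beside these counts, 14.2% of all kept probe sets of all genes were lower and 7.23% higher. Without the 4 h DMSO array the total lower was 427 and the total higher 19, and without the 20 h CPT array the total higher was 24.

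Letters separated the probe sets within these genes. The following groups were formed after the values were seen and carry no test. The same letters were not read over all genes, so whether the split is particular to the CHD genes is unknown. Kept probe sets with the letters B, C, D, F, T and X had a median late difference of −1.13, and 795 of 1730 were lower. Those with E, Y and Z had a median of 0.51, with 13 of 263 lower and 28 higher (background 14.2% and 7.23%, all letters). The latter were dimmer, with a median DMSO level of 4.02 against 5.71, and were kept less often: 28.7% of E, 21.1% of Y and 22.3% of Z probe sets passed the filter, against 92.8% of F and 92.9% of T. In CHD1 the median was −3.84 over 173 probe sets of the first group and 0.45 over 9 of the second. The pooled medians join unlike genes: CHD3 and CHD5, which did not fall, gave 45 and 57 of the 263. Their first-group medians were already above 0 (0.25 and 0.53), and their second-group medians were 0.46 and 0.78. In CHD2 and CHD9 the second group had medians of −0.11 and −0.17, against −1.76 and −1.99 in the first.

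**Figure D3:**
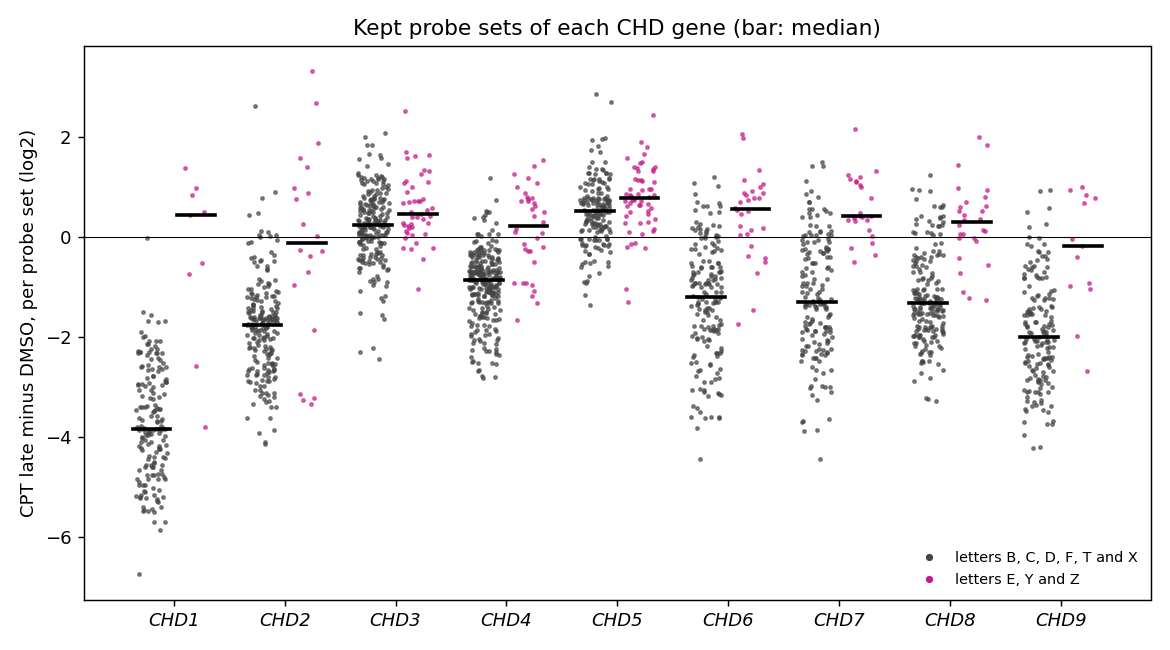
Difference between CPT late and DMSO (log2, vertical axis) for each kept probe set of each CHD gene, with letters B, C, D, F, T and X in grey, letters E, Y and Z in pink, and a bar at each median. Over all CHD genes the grey group has a median of −1.13 and the pink group 0.51.

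Probe sets were then compared with their own gene. The relative value is a probe set's log2 value minus the median of its gene's kept probe sets on that array. With limma over 944048 probe sets, 164 CHD probe sets rose relative to their gene in CPT late (background 4.38%) and 76 fell (3.04%), while 0 passed in CPT early, where the background was 0.0132% and 0.0101%. Leaving out the 4 h DMSO array took the total of 240 to 61. Leaving out the 20 h arrays took it to 120 (DMSO) and 139 (CPT). A relative rise in a gene that fell can mean only that the probe set stayed level. The examples below are among the 10 with the largest absolute relative change in their gene.

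In CHD1, the Y probe set of event 0, copy 14, was bright and level at 9.42 and 8.81 in DMSO, 8.74, 9.14 and 9.01 in CPT early and 9.50 and 9.62 in CPT late. The X probe set of event 0, copy 1, went from 9.68 and 9.27 in DMSO to 9.34, 8.96 and 7.70 in CPT early and 2.31 and 3.12 in CPT late. Both started near the same brightness, and the second held the lowest late difference of any kept CHD probe set, −6.76. Their relative changes were 4.32 ± 0.42 (SE, adjusted p = 4.56e-05) and −2.88 ± 0.31 (SE, adjusted p = 1.12e-04). The E probe sets of events 25 and 22 had relative changes of 5.27 ± 0.68 and 4.86 ± 0.60.

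CHD2 held probe sets that rose while the gene fell. The Z probe set of event 0, copy 2, was 3.86 and 3.79 in DMSO, 5.74, 5.98 and 7.0 in CPT early and 7.13 and 7.17 in CPT late. The Z probe set of copy 1 was 4.70 and 5.34, then 6.0, 6.75 and 7.24, then 7.21 and 8.23. The B probe set of event 5 was 5.28 and 4.93, then 6.20, 6.87 and 7.70, then 7.97 and 7.47. In all 3 each CPT array, from 1 h on, lay above both DMSO arrays.

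Their late differences were 3.33, 2.70 and 2.62 (limma, adjusted p = 1.54e-04, 9.29e-04 and 8.31e-04). The early differences of 2.42, 1.64 and 1.82 did not pass (adjusted p = 0.062, 0.381 and 0.224). Later in the numbering, the E probe set of event 35 was 7.14 and 7.43 in DMSO and 8.93 and 8.81 in CPT late, and the Y probe set of event 0, copy 27, was 7.69 and 8.12 and then 9.42 and 9.20. These were within or close to the DMSO range through 4 h (6.83, 7.02 and 7.61 for the first) and higher late (limma, adjusted p = 0.00243 and 0.00577).

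In CHD4 the D probe set of event 2 rose from 7.98 and 8.52 in DMSO to 9.46 and 9.41 in CPT late, with 8.56, 8.42 and 8.75 in between (late difference 1.18, limma adjusted p = 0.00301). It was the only 1 of 301 kept CHD4 probe sets that passed as higher. In CHD3 the D probe set of event 18 rose from 5.75 and 5.66 through 6.09, 6.66 and 6.72 to 7.20 and 8.40, and the B probe set of event 25 fell from 5.61 and 6.23 through 4.22, 5.46 and 5.36 to 3.78 and 3.49. So CHD3, whose gene value did not pass, held probe sets past the threshold in both directions (limma, adjusted p = 0.0027 and 0.0063). Of its 259 kept probe sets 22 were higher and 3 lower, where the shares over all kept probe sets were 7.23% and 14.2%. Both examples were picked for a large relative change.

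In the class III genes, letters of 1 event moved apart. In CHD8 event 39, the E probe set was 4.80 and 4.27 in DMSO and 5.93 and 7.15 in CPT late, while the B probe set went from 7.97 and 8.22 to 4.45 and 5.17. Their late differences were 2.00 and −3.29 (limma, adjusted p = 0.0109 and 3.01e-04).

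In CHD7 event 9 the C probe set was 7.21 and 7.43 in DMSO and 8.84 and 8.82 in CPT late, while the T probe set went from 5.92 and 5.86 to 2.18 and 2.22. In CHD7 event 32 the E probe set was 4.32 and 4.13 in DMSO and 5.84 already on the 4 h CPT array, then 6.29 and 6.50. The B probe set of that event was 7.06 and 5.61 in DMSO, 5.85 and 5.70 after 1 and 2 h, 2.20 after 4 h, and 2.10 and 1.71 late. Between the single 2 and 4 h arrays the E probe set rose from 4.04 to 5.84 and the B probe set fell from 5.70 to 2.20. Their early differences of 0.24 and −1.75 did not pass (limma, adjusted p = 0.987 and 0.826). The late differences were 2.17 and −4.43 (limma, adjusted p = 0.0237 and 0.00359).

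In CHD9 the D probe set of event 4 was level at 8.76 and 8.72 in DMSO, 8.27, 8.99 and 8.62 in CPT early and 8.95 and 9.07 in CPT late. Its relative change was 2.51 ± 0.32 (SE, limma adjusted p = 3.91e-04). The E probe sets of events 33 and 35 had relative changes of 3.08 ± 0.36 and 3.25 ± 0.40. In CHD6 the B and C probe sets of event 14 fell most among the 10, from 7.46 and 8.11 to 4.81 and 1.88 and from 6.58 and 7.14 to 2.75 and 3.35.

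Event numbers gave a further view, described without a test over the B, F and T probe sets. In CHD7 the medians of events 1, 2 and 3 were 0.01, −0.05 and −0.03 in CPT late against DMSO, and those of events 4 and 5 were −1.90 and −2.43. Event 3 had a median level of 6.23 in DMSO and 4.53 in CPT late, so its 3 probe sets did not move alike. The medians of events 7, 9 and 13 of CHD7 were also near 0, at −0.10, 0.11 and −0.23, with event 7 read by 1 probe set. Event 9 was not level throughout, since its T probe set differed by −3.69. In CHD2 events 3 and 5 had medians of −0.06 and 0.28 and events 6 to 8 ranged from −1.86 to −1.45. Event 5 of CHD2 held 2 probe sets, and its B probe set rose by 2.62, so the median joins unlike changes. In CHD8 the medians of events 2, 4 and 5 were −0.40, −0.36 and −0.31, and those of events 11, 12 and 13 were 0.49, 0.17 and 0.23. CHD8 events 21 to 24 lay between −1.84 and −1.55.

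The event numbers of each gene were also cut into a low, a middle and a high range of equal width. In CHD1 these had late medians of −3.66, −2.78 and −4.27, and 4 h medians of −1.91, −1.87 and −1.87. In CHD4 the ranges were −0.78, −0.69 and −0.83 late, and −0.03, −0.0018 and −0.18 at 4 h. Late, they were −1.29, −1.14 and −1.40 in CHD6, and −1.20, −1.44 and −1.37 in CHD7. In CHD2 they were −1.67, −1.33 and −1.86. In CHD8 they were −0.70, −1.43 and −1.35, and in CHD9 −1.48, −2.08 and −2.09.

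**Figure D4:**
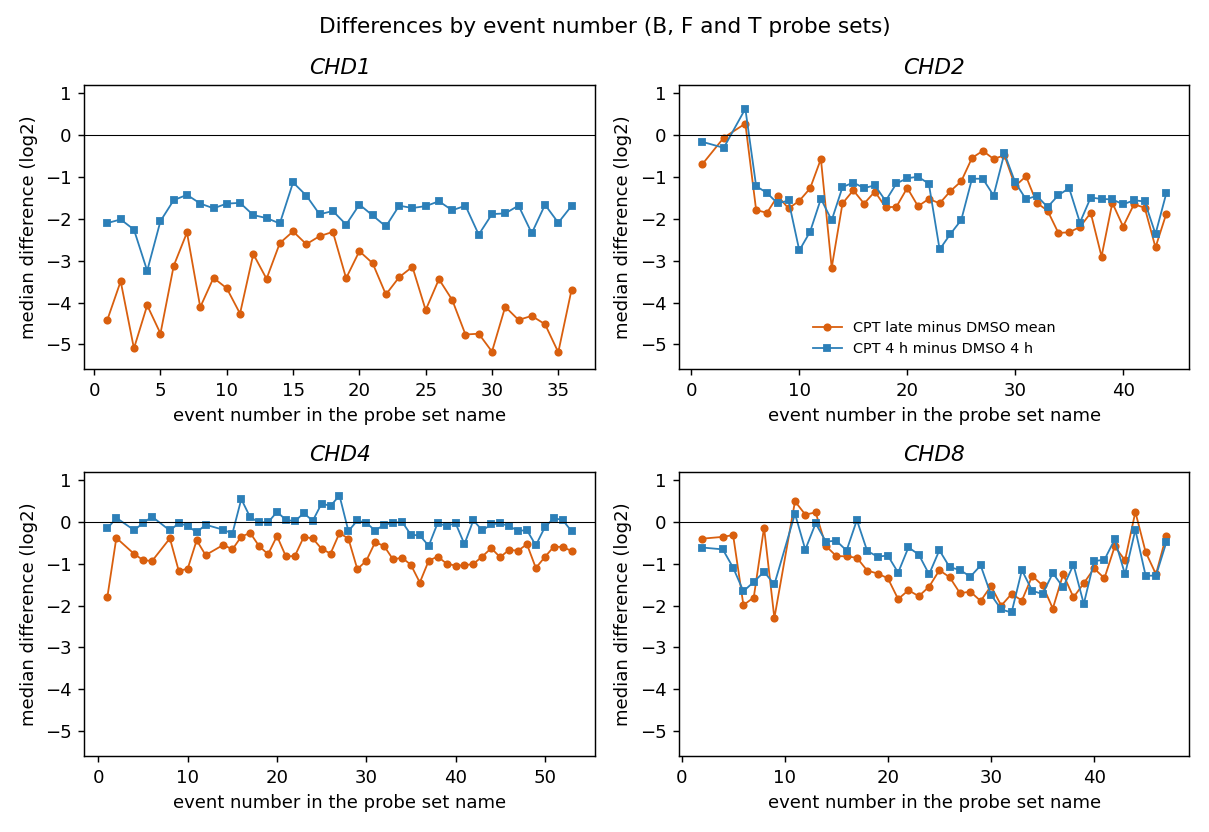
Median difference (log2, vertical axis) by event number for the B, F and T probe sets of CHD1, CHD2, CHD4 and CHD8, with CPT late minus the DMSO mean in orange and CPT 4 h minus DMSO 4 h in blue. CHD1 is below 0 at every event at both times, CHD4 lies near 0 at 4 h and below it late, and events 11 to 13 of CHD8 lie at 0.17 to 0.49 late.

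The other genes of the remodelling machinery were read from 4 lists. Of 21 other SNF2 family ATPases, 15 fell in CPT late and 0 rose (limma, background 18% and 33.4%), with a list median of −0.93 against 0.34 over all genes. The 4 with the largest falls were SMARCAD1 (−3.19), a remodeller of replicating chromatin, BTAF1 (−1.90), which removes TATA-binding protein from DNA, INO80 (−1.67), the motor of its complex, and ATRX (−1.62), which places a histone H3 variant with DAXX. Of 20 BAF and ISWI accessory subunits 9 fell and 0 rose, among them the ISWI partners RSF1 (−3.09), BAZ1A (−2.94) and BPTF (−2.77) and the PBAF subunit BRD7 (−2.26). The list median was −0.46.

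Of 12 NuRD subunits, the partners of CHD3, CHD4 and CHD5, 3 fell and 1 rose (limma, background 18% and 33.4%), with a median of −0.05. MBD2, which binds methylated DNA, fell from 7.41 and 7.15 in DMSO to 4.24 and 3.90, GATAD2B from 6.34 and 6.38 to 4.11 and 4.15, and MTA3 from 5.23 and 5.18 to 3.75 and 3.79. HDAC1, the deacetylase, rose by 0.73 (adjusted p = 0.0126). Of 14 listed H3K4 methylation and elongation genes 13 were measured, and 5 fell and 2 rose (same background of 18% and 33.4%). LEO1 (−2.41), RTF1 (−2.31) and CDC73 (−1.60), subunits of the PAF1 elongation complex, fell, and so did KMT2A (−1.68), a lysine 4 methyltransferase. In CPT early 0 members of the 4 lists passed with limma.

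**Figure D5:**
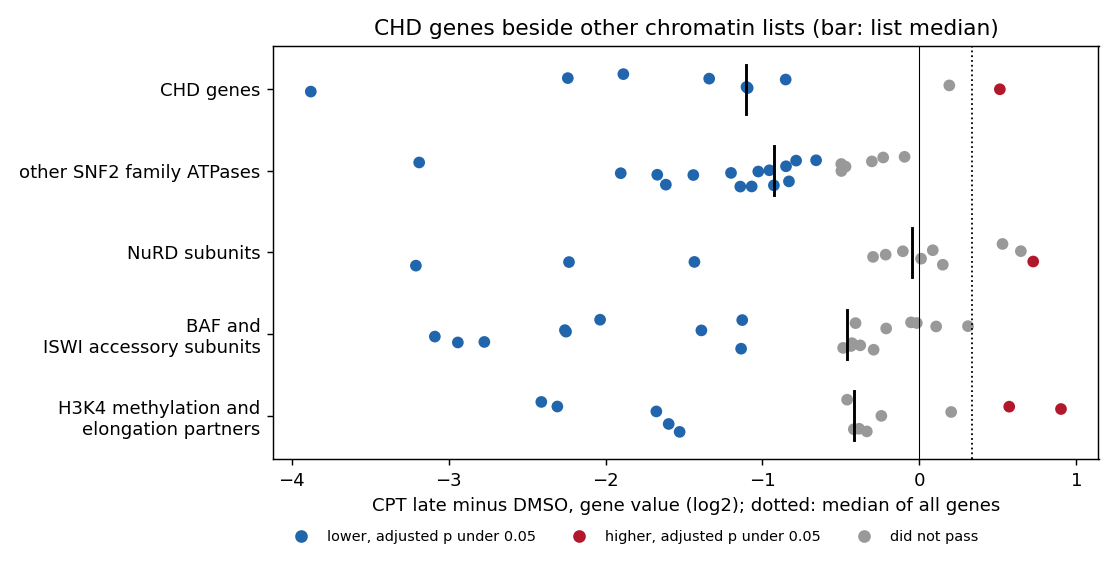
Difference in gene value between CPT late and DMSO (log2, horizontal axis) for the CHD genes and 4 lists of chromatin genes, 1 point per gene, coloured by the limma call, with a bar at each list median and a dotted line at the median of all genes (0.34). The list medians are −1.10 for the CHD genes, −0.93 for other SNF2 family ATPases, −0.05 for NuRD subunits, −0.46 for BAF and ISWI subunits and −0.42 for the H3K4 and elongation list.

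Gene length moved with the calls over all genes. By RefSeq spans (GRCh38.p14), 7.08% of genes under 30 kb were lower in CPT late, 25.1% of those from 30 to 60 kb, 33.6% from 60 to 100 kb, 37.6% from 100 to 200 kb and 29.1% from 200 to 400 kb. CHD3 is the shortest CHD gene at 28.0 kb and did not pass, CHD4 spans 37.3 kb, and CHD5 spans 78.5 kb and was higher. CHD8 spans 70.9 kb, CHD1 75.0 kb, CHD2 128 kb, CHD7 189 kb, CHD6 216 kb and CHD9 273 kb. The 6 genes of 70 kb or more other than CHD5 all fell, but not in order of length: CHD1, with the largest fall, is shorter than CHD5. The part of length in the CHD differences was not tested.

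Genes with the most similar course over the 7 arrays, after centring each on its own mean, were sought for each CHD gene by root mean square difference. The nearest to CHD1 was NIPBL, the cohesin loader, at 0.37 (log2), followed by LEMD3 and SOCS6, both at 0.41. The nearest to CHD2 was RNF19A at 0.12, to CHD9 RNF8 at 0.10, to CHD6 RABGAP1 at 0.07, to CHD7 CMIP at 0.08, and to CHD8 AKAP10 at 0.09. For the class II genes these were MYL5 for CHD3 (0.04), ENAH for CHD4 (0.07) and NELL1 for CHD5 (0.04). CHD1 thus had no neighbour as close as those of the other 8, which vary less.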

How the data were processed

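Total RNA of HCT116 cells was measured on 7 arrays. The authors deposited log2 values, 1 per probe set and array. The submitters' processing notes name RMA, Partek 6.08 and R 2.11.1 without saying what each did. How background and summaries were made, and on which build, is not given in the sources used here, and the log2 scale was read from the range of the values. Probe sets were joined to genes by the gene number in their name, checked against the platform annotation and the RefSeq genes (GRCh38.p14).

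Probe sets with a mean over all arrays above 2.95, the median of all probe sets, were kept, and genes with at least 3 kept ones got their median as gene value (5 for relative values). limma 3.58.1 in R 4.3.3 (lmFit, eBayes with trend) took all 7 arrays, a mean for each of the 3 groups and so 4 residual degrees of freedom. Adjusted p-values are Benjamini-Hochberg values over every gene (or every kept probe set) tested, called under 0.05. The fit was tested on simulated data. The number of arrays limits the precision. Only the CPT and DMSO labels and times defined the groups.

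The CHD genes, the gene lists and the tests were chosen with earlier results of these data known. Named were all CHD genes, the 10 probe sets of each with the largest absolute relative change, up to 4 genes per list with the largest difference past the threshold, and up to 3 nearest genes by course. Alternatives were gene means, no filter or a filter at the 0.75 quantile, quantile re-normalization, centring, eBayes without trend or robust, leaving out each array, all CPT arrays as 1 group, time as a block, and B, F and T probe sets only. Software for tables and figures was data.table (release 1.17.8) and Python 3.11.15 with matplotlib 3.10.9.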

Additional observations from a re-analysis of the deposited data

Results flagged for a closer look

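In 7 CHD genes the difference between CPT late and DMSO was not the same as that between CPT early and DMSO, by the limma test of late against early. Both comparisons use the same DMSO arrays, so the difference is that between the late and early arrays. On the log2 scale it was −3.01 for CHD1, −1.59 for CHD9, −1.06 for CHD2, −0.96 for CHD6, −0.95 for CHD4, −0.57 for CHD8 and 0.42 for CHD5. CHD8 and CHD5 passed under 7 of 15 alternatives each.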

How the results depend on the processing

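The count of 7 CHD genes lower in CPT late was 0 with all CPT arrays as 1 group and 0 with a time block over the 4 and 20 h arrays, which join late with early arrays, and 5 to 7 with each array left out. The count of 1 higher (CHD5) was 0 with centred arrays, with all CPT arrays as 1 group, with the time block and with B, F and T probe sets only, and 0 to 1 with each array left out. The 0 called in CPT early stayed 0 under all alternatives run. Lower in late than early were 5 to 7 with each array left out. CHD probe sets lower late numbered 427 to 786 with each array left out, the lowest without the 4 h DMSO array. Those higher (61) numbered 33 without the intensity trend, 37 after centring and 19 to 57 with each array left out. Relative changes (240) numbered 832 with no filter, 136 without the trend and 61 to 223 with each array left out, and early ones (0) numbered 1 with no filter, 1 with the mean and 0 to 2 with each array left out.

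Turned in sign were values that had not passed. CHD3 in CPT late read −0.042 after centring and −0.021 to 0.402 with each array left out, negative without DMSO replicate 1 (4 h, −0.020) and without CPT late replicate 2 (20 h, −0.021). In CPT early CHD3 read −0.016 with quantile re-normalization, −0.012 after centring and −0.210 to 0.211 with each array left out, negative without DMSO replicate 1 and without CPT early replicate 2 (2 h, −0.045). Late against early CHD3 read −0.030 after centring and −0.022 to 0.402 with each array left out, negative without CPT late replicate 2. CHD5 in CPT early read −0.041 to 0.225 with each array left out, negative without DMSO replicate 1. CHD4 in CPT early read −0.281 with all CPT arrays as 1 group, −0.521 with the time block and −0.024 to 0.225 with each array left out, negative without DMSO replicate 2 (20 h). The causes were not tested. No paired analysis by replicate number was possible because those numbers only name arrays; the arrays matched by time entered the time block above. With no detection calls, dim values such as those of CHD1 in CPT late have no known distance from background.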
